A study of Mus musculus with 12 samples.

Results

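Expression of 9 genes linked to memory B cells and to the T-bet-type (age-associated or atypical) memory subset was examined in splenic B cells of normal mice and of mice carrying lymphoma models. The genes are Tbx21, Zeb2 and Zbtb32 (transcription factors), Itgax and Itgam (integrin chains), Fcrl5 (an immunoglobulin-binding receptor), Nt5e and Cd38 (surface enzymes) and Ahnak (a scaffold protein). They were matched in the files by symbol and are 9 of the 50686 genes counted. All 9 passed the filter on low counts that kept 17754 genes for testing.

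The cells were sorted from 12 spleens as live, reporter-expressing B220-positive cells, and their poly(A) RNA was sequenced. The control group, YC, had the genotype YFPstopF/+Cg1Cre/+ and was sorted on YFP (3 mice). The BIC group carried Blimp1F/F and IKK2castopF/stopF with Cg1Cre/+ and was sorted on GFP (3 mice). The pBIC group carried p53F/F in addition to all BIC alleles and was sorted on GFP as well (6 mice). The deposited pBIC files carry 1 of 2 letters that the labels do not explain, and the 6 libraries were kept as the 1 group that the labels give. Cg1Cre, which all 3 groups share, drives recombination in B cells once the IgG1 constant gene is transcribed, so the controls are recombined B cells and not resting B cells. Blimp1 is the plasma cell factor encoded by Prdm1, and IKK2ca is an active form of a kinase of the canonical NF-kappaB pathway. The labels describe both models as ABC-DLBCL, a form of diffuse large B-cell lymphoma that resembles activated B cells. Age is not given in the labels. The design text counts mice, so p-values measure the spread between these mice.

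Memory B cells are long-lived antigen-experienced cells that respond quickly when an antigen returns. Some of them, and the B cells that accumulate with age, infection or autoimmunity, express the transcription factor T-bet and the integrin chains CD11c and CD11b, which are encoded by Tbx21, Itgax and Itgam. In mice, CD73 (Nt5e), CD80 and PD-L2 mark subsets of memory B cells, and CD38 is high on memory B cells and low on germinal centre B cells.

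The genes did not move as 1 programme. In BIC libraries Fcrl5, Zbtb32, Itgam, Ahnak and Cd38 rose by 12-, 10.6-, 6.86-, 4.42- and 2.38-fold over YC, whereas Tbx21 and Itgax, which define the T-bet-type subset, had lower means there. In pBIC libraries Tbx21, Itgax and Nt5e fell by 9.61-, 6.18- and 4.40-fold against YC, and Zbtb32 rose by 7.11-fold. Fcrl5, Itgam, Ahnak and Cd38 were lower in pBIC than in BIC. In pBIC the levels of Tbx21 and Itgax thus went against the label of a T-bet-type group, and in BIC neither gene passed the test.

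Of the 9 genes, 5 passed edgeR's quasi-likelihood test between BIC and YC at a Benjamini-Hochberg adjusted p under 0.05, all of them higher, against 8.88% of all genes tested (3.9% higher and 4.97% lower). Between pBIC and YC 4 passed, 1 higher and 3 lower, against 22% of all genes tested (11.8% higher and 10.2% lower). Between pBIC and BIC 4 passed, all lower, against 19.7% (10.9% higher and 8.78% lower). Beside the lower values in pBIC, 4 of the 9 B cell markers (Pax5, Ebf1, Cd22 and Ptprc) and 8 of the 9 germinal centre markers also fell against YC. Between pBIC and BIC, 5 of the 9 B cell markers (Ms4a1, Cd79b, Blk, Cd22 and Ptprc) and 12 of the 14 neutrophil markers were lower, as were the 4 genes called. The part of these shifts in the results for the 9 genes was not tested. The median log2 fold change of the 9 genes was 1.25 for BIC against YC, beside 0.01 over all genes tested. It was 0.44 for pBIC against YC, beside 0.10, and -1.62 for pBIC against BIC, beside 0.09. BIC and YC libraries had separate ranges for 6 of the 9 genes, as for 45.2% of all genes tested. The ranges were separate for 4 of the 9 in pBIC and YC (26.1% of all) and for 4 in pBIC and BIC (21.6%). The 3 comparisons share libraries, so their counts are not independent of each other.

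**Figure D1:**
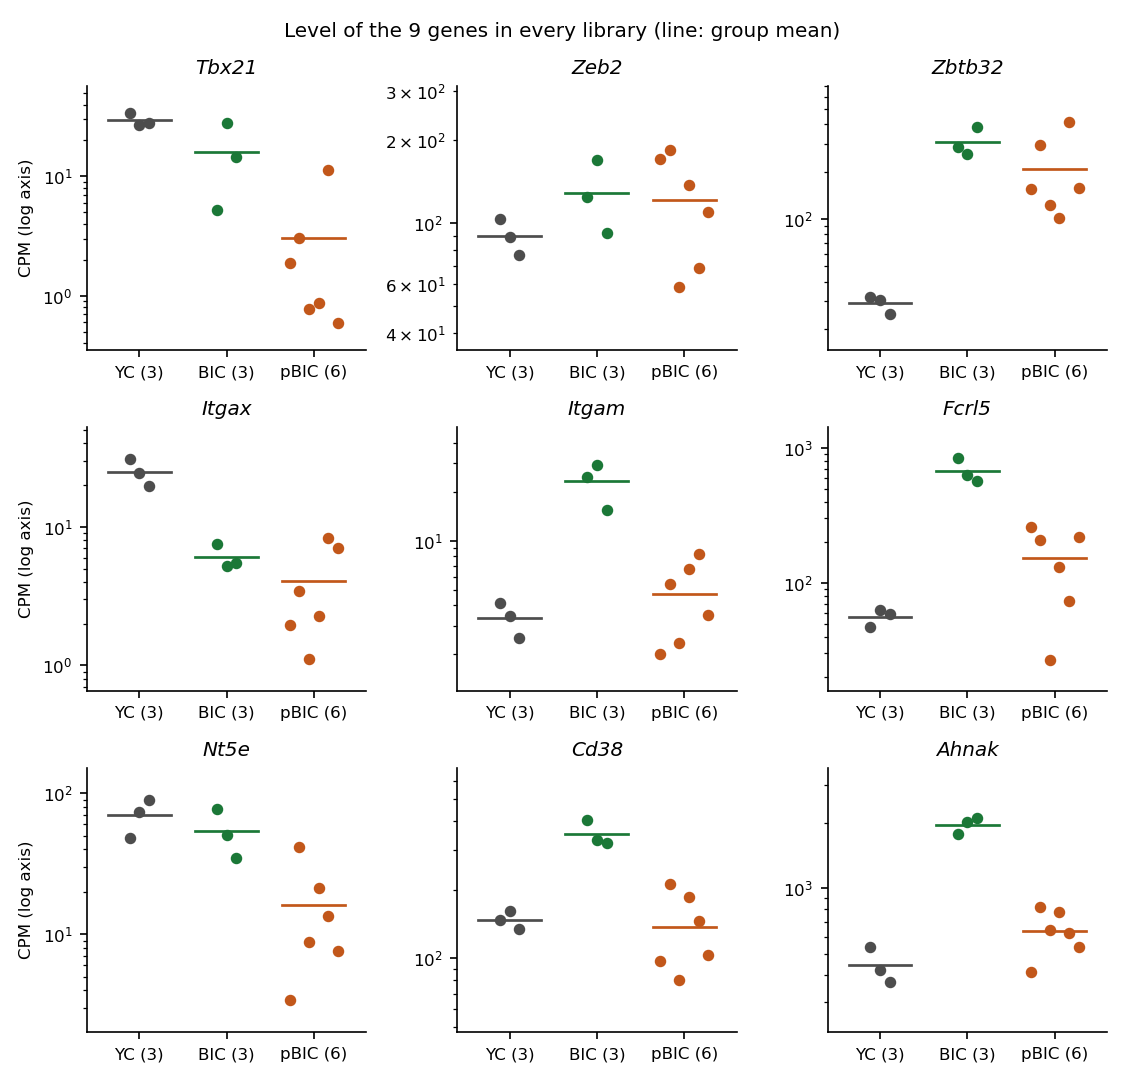
CPM (counts per 1e+06 counts of the TMM-scaled library, log axis) of the 9 genes in each library, 1 point per mouse, in YC (3), BIC (3) and pBIC (6). Zbtb32 lies above every YC library in both models, Itgax lies below every YC library in both, and Fcrl5, Itgam, Cd38 and Ahnak are highest in BIC.

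Total counts per library ran from 33127283 to 47067627, so a count of 0 allows up to 3 counts, which corresponded to 0.0637 to 0.0906 CPM. Trp53, the gene deleted in pBIC, was at 16.2 to 32.0 CPM there and at 72.0 to 208 CPM in the other libraries. Summed B cell markers (9 genes) ran from 9373 to 10950 CPM in YC, from 9941 to 10504 in BIC and from 2757 to 8086 in pBIC. Germinal centre markers (9 genes) summed to 755 to 1727 CPM in YC, 22.0 to 65.8 in BIC and 22.8 to 56.9 in pBIC, so every control library held germinal centre transcripts that the models had at far lower levels. The 14 neutrophil markers summed to 304, 11.2 and 3.41 CPM in YC 1 to 3, to 993, 1645 and 68.9 CPM in BIC 1 to 3, and to 6.54 to 88.7 CPM in pBIC. The 12 T cell markers summed to 14.1 to 32.0 CPM in YC, 57.2 to 142 in BIC and 9.10 to 60.1 in pBIC. Much of the BIC sum was Cd3g (61.4 CPM on average, 2.61 in YC and 4.04 in pBIC). Only Cd3g, 1 of the 12, passed between BIC and YC. Cd3e, Cd3d, Trac, Trbc1 and Trbc2 each averaged 3.35 to 5.75 CPM in BIC. Y-linked genes were expressed in all YC libraries (392 to 414 CPM) and Xist in all BIC libraries (1679 to 1827 CPM), so sex and genotype cannot be told apart between BIC and YC. In pBIC, Xist was at 1490 to 2632 CPM in libraries 2, 4 and 5, Y-linked genes were at 298 to 299 CPM in libraries 3 and 6, and library 1 had little of either. In such bulk samples, fewer cells of a type and less RNA per cell cannot be told apart.

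The promoter sequences of 5 of the genes are shown. Tbx21 and Itgax fell in pBIC against YC, and Zbtb32, Fcrl5 and Ahnak rose in BIC against YC. Zbtb32 rose in pBIC as well, whereas Fcrl5 and Ahnak did not pass there, and neither Tbx21 nor Itgax passed in BIC. Each is the RefSeq window on GRCm38.p6 from 250 bases before to 50 bases after a transcription start, 5′ to 3′ on the gene's strand. Capitals mark matches to 3 short motifs searched on both strands: GGTGTG, the core of the T-box element that T-bet binds, CAGGTG, an E-box bound by ZEB factors, and GGGANNNNCC, a simplified NF-kappaB motif. The Tbx21 window is chr11:97115282-97115581 (minus strand), that of Itgax chr7:128129300-128129599 (plus), the first of Zbtb32 chr7:30598860-30599159 (minus), that of Fcrl5 chr3:87435532-87435831 (plus) and that of Ahnak chr19:8989034-8989333 (plus).
Tbx21: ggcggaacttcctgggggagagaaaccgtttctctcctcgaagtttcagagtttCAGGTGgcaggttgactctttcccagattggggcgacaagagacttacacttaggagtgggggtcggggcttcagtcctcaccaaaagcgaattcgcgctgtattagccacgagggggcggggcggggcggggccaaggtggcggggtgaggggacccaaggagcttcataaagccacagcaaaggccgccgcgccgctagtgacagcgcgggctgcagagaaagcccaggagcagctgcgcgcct
Itgax: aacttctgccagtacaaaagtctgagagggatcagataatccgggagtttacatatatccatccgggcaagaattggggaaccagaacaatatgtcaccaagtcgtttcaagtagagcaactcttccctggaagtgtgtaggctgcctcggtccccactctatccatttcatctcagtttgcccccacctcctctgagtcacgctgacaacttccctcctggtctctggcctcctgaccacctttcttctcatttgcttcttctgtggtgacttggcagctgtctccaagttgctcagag
Zbtb32: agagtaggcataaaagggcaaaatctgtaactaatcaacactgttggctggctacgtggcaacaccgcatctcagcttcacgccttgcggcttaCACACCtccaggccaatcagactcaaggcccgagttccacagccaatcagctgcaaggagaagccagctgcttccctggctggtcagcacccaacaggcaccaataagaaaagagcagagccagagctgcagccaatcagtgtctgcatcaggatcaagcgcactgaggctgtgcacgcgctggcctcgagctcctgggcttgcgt
Fcrl5: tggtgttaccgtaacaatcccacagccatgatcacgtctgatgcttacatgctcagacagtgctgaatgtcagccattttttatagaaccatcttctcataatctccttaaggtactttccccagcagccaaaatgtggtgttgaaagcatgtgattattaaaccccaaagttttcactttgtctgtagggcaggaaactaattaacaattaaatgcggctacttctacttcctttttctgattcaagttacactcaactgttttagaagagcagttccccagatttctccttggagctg
Ahnak: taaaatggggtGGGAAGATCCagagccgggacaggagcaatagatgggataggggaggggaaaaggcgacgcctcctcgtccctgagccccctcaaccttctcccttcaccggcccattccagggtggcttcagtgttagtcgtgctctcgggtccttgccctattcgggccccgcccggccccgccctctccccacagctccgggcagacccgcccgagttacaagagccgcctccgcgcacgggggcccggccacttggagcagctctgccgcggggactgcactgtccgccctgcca
The Tbx21 window held 1 E-box match, starting 196 bases before the start site, the Zbtb32 window 1 T-box match and the Ahnak window 1 NF-kappaB match. The Itgax and Fcrl5 windows held none of these letters.

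All 9 genes had an entry in the RefSeq promoter table, with 13 windows in all. The T-box core occurred in 5 of the 13 windows (3 of Zeb2, 2 of them overlapping, and both of Zbtb32), the E-box in 1 (Tbx21) and the NF-kappaB motif in 2 (Nt5e and Ahnak). In the 32851 windows of the whole table the shares were 19.0%, 20.2% and 20.7%, and windows of 1 gene are not independent. A match is a description of the letters and not of a bound site. The 2 genes with the NF-kappaB letters differed in their changes, since Ahnak rose in BIC and Nt5e did not pass there.

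Tbx21 encodes T-bet, the T-box factor that interferon-gamma and Toll-like receptor signals induce in B cells and that promotes switching to IgG2a/c. Its gene (ENSMUSG00000001444.2) lies at chr11:97098071-97115331 on the minus strand. Tbx21 was at 33.7, 26.9 and 28.1 CPM in YC, at 5.18, 28.1 and 14.6 CPM in BIC, and in pBIC the lowest library had 0.591, the median was 1.38 and the highest had 11.2 CPM. Every pBIC library was below every YC library, whereas 1 BIC library lay within the YC range. Against YC, Tbx21 fell by 3.26 on the log2 scale in pBIC (SE 0.83, edgeR adjusted p = 0.0156), and this call was lost without YC 1 (adjusted p = 0.0508). The BIC difference from YC was -0.89 ± 0.99 (SE) with an adjusted p of 0.615, so it was within the spread between mice. The difference between pBIC and BIC was -2.38 ± 0.82 (adjusted p = 0.0608). It passed with DESeq2 (adjusted p = 0.0167), with limma-voom (0.0199) and without pBIC 5, the library with the highest value (-3.47, 0.00454). Within pBIC the highest library had 19.0 times the lowest, the widest relative range of the 9 genes. Beside these values, the 10 natural killer cell markers summed to 9.65 to 16.4 CPM in YC, 20.4 to 29.6 in BIC and 7.33 to 47.7 in pBIC. Their sum was highest in pBIC 5 (47.7 CPM), where 3 of the 10 (Ncr1, Klrb1c and Klra8) were at 0 counts. The T cell markers also had their highest pBIC sum in that library (60.1 CPM, beside 57.2 to 142 in BIC, where Cd3g alone averaged 61.4). The part of these markers in the Tbx21 values was not tested. In the 2 pBIC libraries with Y-linked transcripts, which YC also has, Tbx21 was at 0.772 and 0.591 CPM.

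Zeb2 encodes a zinc-finger E-box repressor that is required for the T-bet-type B cell subset. The gene (ENSMUSG00000026872.17) lies at chr2:44983632-45117395 on the minus strand. Zeb2 was at 103, 89.2 and 76.7 CPM in YC, at 124, 169 and 92.0 CPM in BIC, and at 58.8 (lowest), 123 (median) and 184 CPM (highest) in pBIC. The 3 groups overlapped. Zeb2 passed in none of the 3 comparisons, with log2 differences of 0.52 ± 0.40 between BIC and YC, 0.44 ± 0.35 between pBIC and YC and -0.08 ± 0.35 between pBIC and BIC (edgeR adjusted p = 0.456, 0.397 and 0.898). Its level thus did not follow that of Tbx21 in pBIC. For Zeb2, 4 of 6 pBIC libraries were above every YC library and 2 were below every YC library. For Tbx21, 6 of 6 were below every YC library.

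Zbtb32 encodes a BTB zinc-finger repressor that limits the recall responses of memory B cells. It is located at chr7:30589681-30598909 on the minus strand (ENSMUSG00000006310.10). Zbtb32 was at 31.9, 30.8 and 24.9 CPM in YC, at 286, 259 and 387 CPM in BIC, and at 102 (lowest), 157 (median) and 412 CPM (highest) in pBIC. All 9 model libraries were above the 3 controls, and pBIC overlapped BIC. Zbtb32 rose by 3.41 ± 0.50 on the log2 scale in BIC (edgeR adjusted p = 0.003) and by 2.83 ± 0.46 in pBIC (adjusted p = 0.00163). It was the only member of the 9 called in both models. The difference between pBIC and BIC was -0.58 ± 0.38 (adjusted p = 0.306). In the 2 pBIC libraries with Y-linked transcripts, as in YC, Zbtb32 was at 122 and 158 CPM, also above every control.

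**Figure D2:**
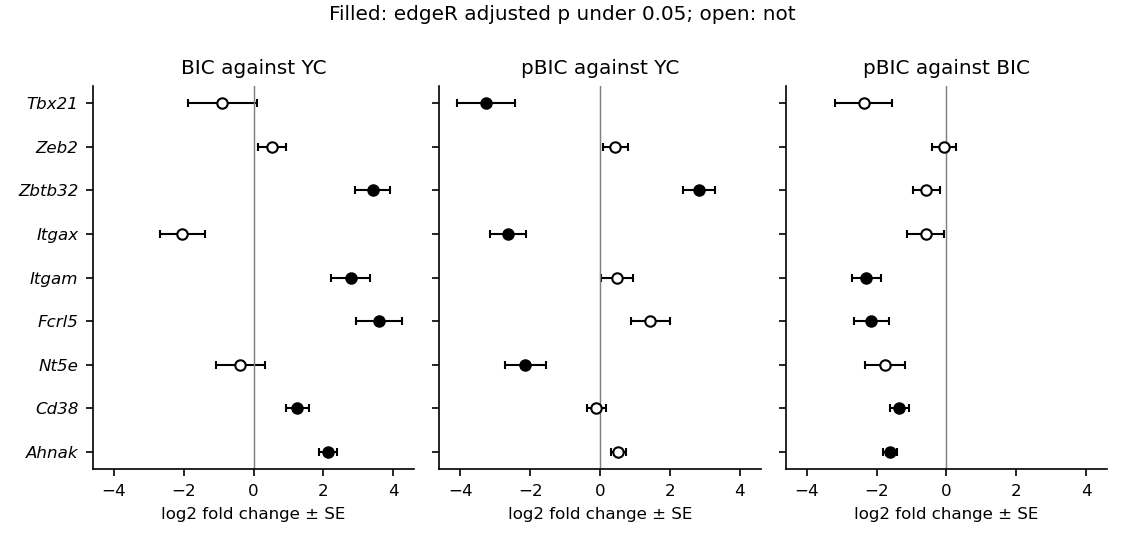
Log2 fold changes with their SE for the 9 genes in the 3 comparisons from the edgeR fit over 12 libraries, with filled points for genes at an adjusted p under 0.05. The 5 filled points for BIC against YC lie above 0, and all 9 points for pBIC against BIC lie below 0.

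Itgax and Itgam encode CD11c and CD11b, the alpha chains that pair with the beta-2 chain of Itgb2 to form complement receptors 4 and 3. They are neighbours on the plus strand of chromosome 7, at chr7:128129547-128150657 (Itgax, ENSMUSG00000030789.9) and chr7:128062640-128118491 (Itgam, ENSMUSG00000030786.18), 11055 bases apart with 1 gene between them, the pseudogene Gm45700. Despite this position their values went in opposite directions in BIC.

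Itgax was at 30.9, 24.3 and 19.6 CPM in YC, at 7.49, 5.26 and 5.49 CPM in BIC, and at 1.10 (lowest), 2.87 (median) and 8.33 CPM (highest) in pBIC. All 9 model libraries were below the 3 controls. Itgax fell by 2.63 on the log2 scale in pBIC (SE 0.52, edgeR adjusted p = 0.00458). In BIC the difference was -2.04 ± 0.65 and did not pass (adjusted p = 0.0732), although the ranges did not overlap. The same BIC difference passed with DESeq2 (adjusted p = 0.0113), with limma-voom (0.0212) and with only YC and BIC in the edgeR fit (0.00192). It also passed in the edgeR fits without pBIC 3 (0.0373) or pBIC 5 (0.048). These 2 libraries are outside this comparison but share its filter, scaling, estimate of spread and adjustment. The pBIC values overlapped those of BIC (-0.59 ± 0.53, adjusted p = 0.464). The 8 dendritic cell markers, another source of CD11c transcripts in spleen, summed to 47.6 to 67.4 CPM in YC, 10.6 to 20.7 in BIC and 9.25 to 28.9 in pBIC. Most of the YC sum was Flt3 (47.2 CPM on average, 1.25 in BIC and 3.75 in pBIC), while Clec9a, Xcr1, Clec10a, Cd209a and Siglech each averaged under 1 CPM in YC. The part of these markers in the Itgax values was not tested.

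Itgam was at 4.12, 3.44 and 2.52 CPM in YC, at 24.5, 29.3 and 15.5 CPM in BIC, and at 2.01 (lowest), 4.45 (median) and 8.33 CPM (highest) in pBIC. Every BIC library was above every YC and every pBIC library, and pBIC overlapped YC. Itgam rose by 2.78 ± 0.55 on the log2 scale in BIC against YC (edgeR adjusted p = 0.0106). It was lower in pBIC than in BIC, with a log2 difference of -2.29 ± 0.43 (adjusted p = 0.00436), and the pBIC difference from YC was 0.49 ± 0.45 (adjusted p = 0.466). The call against YC was lost without YC 2 (adjusted p = 0.0506), without YC 3 (0.0569) and with a term for Xist (log2 difference 1.44, adjusted p = 0.143). Xist is low in all YC and high in all BIC libraries, so that term rests mostly on the spread of Xist within pBIC. It thus cannot separate sex from genotype between BIC and YC, for Itgam or for Nt5e and Cd38 below. In pBIC libraries 2, 4 and 5, which express Xist as BIC does, Itgam was at 5.43, 6.72 and 8.33 CPM, also below every BIC library.

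The level of Itgam is understated by the counting. In the annotation used, Itgam shares exons with the read-through gene Gm49368 on the same strand, and per the file headers no option assigned shared reads, so only 1574 of its 5024 exon bases (31.3%) could be counted. Of the exon bases of Zeb2, 97.6% were unshared, and the other 7 genes shared none.

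Myeloid cells also express Itgam. The median log2 fold change between BIC and YC was 3.03 for the 14 neutrophil markers and 2.615 for the 17 macrophage and monocyte markers. Of the neutrophil markers 1 passed (Cxcr2, higher). Of the macrophage and monocyte markers 2 passed higher (Cd68 and Spic) and 1 lower (Adgre1, -2.85, edgeR adjusted p = 0.0245). Over all genes tested 8.88% passed. The neutrophil markers were highest in BIC 1 and 2, and the 17 macrophage and monocyte markers summed to 58.7 to 112 CPM in YC, 206 to 335 in BIC and 30.5 to 390 in pBIC. BIC 3 had the lowest neutrophil sum of the BIC libraries (68.9 CPM) and their lowest Itgam (15.5 CPM). YC 1 had 304 CPM of these markers and 4.12 CPM of Itgam. The pBIC library with the highest macrophage and monocyte sum, pBIC 6 at 390 CPM, had 3.47 CPM of Itgam. The part of these markers in the Itgam values was not tested. In a fit of the 9 libraries with under 100 CPM of neutrophil markers, which leaves BIC 3 as the only BIC library and takes its spread from the other groups, the Itgam difference was 2.38 (adjusted p = 0.413), beside 2.78 in the fit of all 12, and edgeR called 0 genes between BIC and YC (1876 had an unadjusted p under 0.05). In that same fit Zbtb32, Fcrl5, Ahnak and Cd38 differed by 3.80, 3.22, 2.41 and 1.11, beside 3.41, 3.59, 2.14 and 1.25 in the fit of all 12. The calls of the 9 genes in both comparisons with BIC were lost in that fit, which has BIC 3 alone in its group. Between pBIC and YC it also lost the calls of Tbx21, Itgax and Nt5e.

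**Figure D3:**
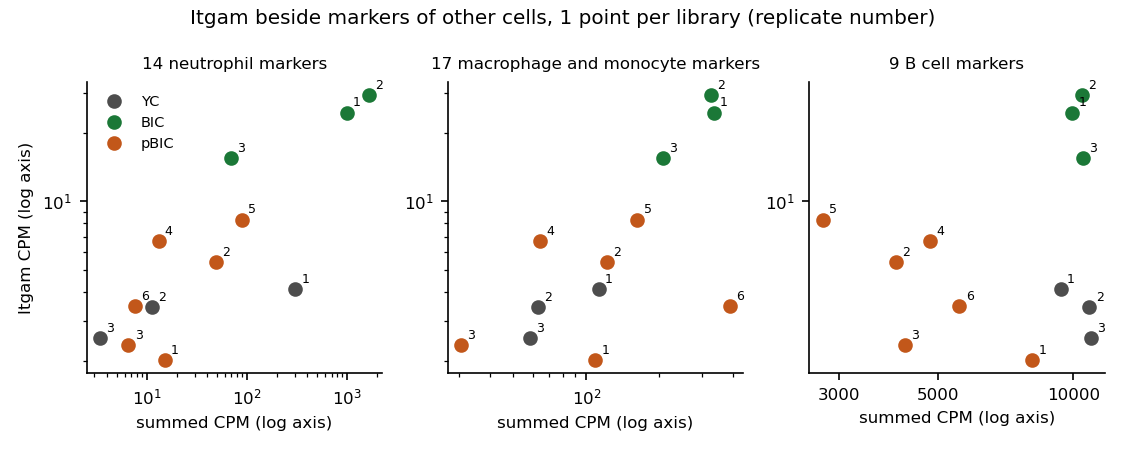
Itgam CPM against the summed CPM of 14 neutrophil, 17 macrophage and monocyte and 9 B cell markers (log axes), 1 point per library labelled with its replicate number. The 3 BIC libraries have the highest Itgam at neutrophil sums from 68.9 to 1645 CPM, and pBIC 6 has the highest macrophage and monocyte sum with 3.47 CPM of Itgam.

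Among 13 integrin partners and ligands, 3 rose in BIC against YC (Itgb1, Itgb7 and F11r) and 0 fell, with a median of 0.26. In pBIC against YC 2 rose and 3 fell (median 0.00), and against BIC 0 were higher and 3 lower (median -0.59). The last count was near the share of all genes tested (19.7%), and the first 2 stood beside 8.88% and 22%. Itgb2, the beta chain that both CD11c and CD11b need, was at 221 CPM in YC, 212 in BIC and 91.9 in pBIC on average. It differed by -0.06 ± 0.35 between BIC and YC (edgeR adjusted p = 0.934) and fell by 1.27 on the log2 scale in pBIC (adjusted p = 0.0104). Itgb7, a partner of gut-homing integrins, rose by 1.56 ± 0.31 in BIC (adjusted p = 0.0102) and was lower in pBIC than in BIC (-1.35 ± 0.25, adjusted p = 0.00417). Itgb1, the beta-1 chain, rose by 2.31 ± 0.46 in BIC and by 1.49 ± 0.41 in pBIC (adjusted p = 0.0111 and 0.0216).

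Fcrl5 encodes an Fc receptor-like protein of B cells that binds immunoglobulin and tunes B cell receptor signals, and it is used as a marker of atypical memory B cells. The gene (ENSMUSG00000048031.15) lies at chr3:87435773-87500678 on the plus strand. Fcrl5 was at 47.1, 62.5 and 59.2 CPM in YC, at 840, 624.9 and 565 CPM in BIC, and at 26.7 (lowest), 169 (median) and 261 CPM (highest) in pBIC. Every BIC library was far above the other groups, and 5 of the 6 pBIC libraries were above every YC library. Fcrl5 rose by 3.59 ± 0.67 on the log2 scale in BIC (edgeR adjusted p = 0.00822), the highest fold change of the 9 genes in this comparison. The pBIC difference from YC was 1.44 ± 0.56 (adjusted p = 0.0841), and it passed with DESeq2 (adjusted p = 0.0305) and without pBIC 3, the lowest library (1.66, 0.0102). Fcrl5 was lower in pBIC than in BIC, with a log2 difference of -2.15 ± 0.50 (adjusted p = 0.0126), a call lost without BIC 1 (adjusted p = 0.0601). In the pBIC libraries with Xist transcripts, Fcrl5 was at 207, 131 and 73.0 CPM, below every BIC library.

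Of 13 other Fc receptor genes and their signalling partners, 12 were tested. In BIC against YC 2 rose and 1 fell (median 0.59), in pBIC against YC 1 rose and 3 fell (median -0.29), and in pBIC against BIC 0 were higher and 4 lower (median -1.20). Over all genes tested 8.88%, 22% and 19.7% passed in these comparisons. Fcer2a, the low-affinity IgE receptor CD23, averaged 619 CPM in YC and fell in BIC and pBIC, with log2 differences of -5.80 and -5.57 (edgeR adjusted p = 0.0153 and 0.00172). Fcamr, a receptor for IgA and IgM, rose by 2.78 ± 0.66 in BIC (adjusted p = 0.0243), a call lost in 7 of 21 alternatives (adjusted p up to 0.354), among them those without any 1 of YC 1 to 3, BIC 1 or BIC 3. Fcgr4, an activating IgG receptor that myeloid cells express as well, rose by 4.39 ± 0.97 in BIC and by 3.25 ± 0.87 in pBIC (adjusted p = 0.0176 and 0.0198), with 6 of 21 alternatives losing each call (adjusted p up to 0.433 and 0.146).

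Nt5e encodes CD73, which converts extracellular AMP to adenosine. The gene (ENSMUSG00000032420.8) lies at chr9:88327197-88372092 on the plus strand. Nt5e was at 48.2, 73.9 and 88.7 CPM in YC, at 77.2, 50.4 and 34.9 CPM in BIC, and at 3.42 (lowest), 11.1 (median) and 41.3 CPM (highest) in pBIC. BIC overlapped YC, and every pBIC library was below every YC library. Nt5e fell by 2.14 on the log2 scale in pBIC against YC (SE 0.58, edgeR adjusted p = 0.0216). This call was lost without YC 2 (adjusted p = 0.0718), without YC 3 (0.0863) and without the filter on low counts (0.064). The BIC difference from YC was -0.38 ± 0.70 (adjusted p = 0.779), and with a term for Xist it was -2.43 (adjusted p = 0.0387). The difference between pBIC and BIC was -1.76 ± 0.58 (adjusted p = 0.0528), and it passed with DESeq2 (adjusted p = 0.0169), with limma-voom (0.0186), with a minimum count of 50 (0.0441), without pBIC 1 (0.0468) and without pBIC 2 (-2.34, 0.0102). In pBIC 3 and 6, with Y-linked transcripts as in YC, Nt5e was at 8.77 and 7.56 CPM.

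Cd38 encodes an enzyme that cleaves NAD and makes cyclic ADP-ribose. The gene (ENSMUSG00000029084.5) is at chr5:43868553-43912375 on the plus strand. Cd38 was at 148, 162 and 135 CPM in YC, at 404, 332 and 320 CPM in BIC, and at 80.4 (lowest), 124 (median) and 213 CPM (highest) in pBIC. The BIC libraries were above all others, and pBIC overlapped YC. Cd38 rose by 1.25 ± 0.33 on the log2 scale in BIC (edgeR adjusted p = 0.0363), but the call was lost when any 1 of the 6 YC and BIC libraries was left out (adjusted p from 0.0581 to 0.129), and with a term for Xist the difference was 0.30 (adjusted p = 0.539). Cd38 was lower in pBIC than in BIC, with a log2 difference of -1.36 ± 0.27 (adjusted p = 0.00621). Its pBIC difference from YC was -0.10 ± 0.28 (adjusted p = 0.819), and with a term for Xist it was -0.70 (adjusted p = 0.0336). In the pBIC libraries with Xist transcripts it was at 213, 186 and 146 CPM, below every BIC library.

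Of 19 other genes of NAD and adenosine metabolism 17 were tested: 1 rose and 1 fell in BIC against YC (median 0.61), 3 rose and 3 fell in pBIC against YC (median 0.48), and 1 was higher and 2 lower in pBIC against BIC (median 0.26). The first and the last of these counts were near the shares of all genes tested (8.88% and 19.7%). Entpd1 (CD39), which makes the AMP that CD73 uses, averaged 18.6 CPM in YC, 64.2 in BIC and 26.4 in pBIC. It rose by 1.79 ± 0.44 in BIC (edgeR adjusted p = 0.0285), a call lost in 8 of 21 alternatives (adjusted p up to 0.388), among them those without any 1 YC or BIC library. Ada, which breaks down adenosine, fell in both models, with log2 differences of -2.25 in BIC and -2.16 in pBIC (adjusted p = 0.0199 and 0.0035), and the BIC call was lost in 6 of 21 alternatives, among them those without YC 2, YC 3, BIC 2 or BIC 3 (adjusted p up to 0.273). In pBIC Enpp1, which hydrolyses extracellular ATP, fell by 3.26 (adjusted p = 0.00149), and Adk, which phosphorylates adenosine, rose by 1.41 ± 0.30 (adjusted p = 0.00609).

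Ahnak encodes a giant scaffold protein that associates with S100A10 and annexin A2 beneath the plasma membrane. It lies at chr19:8989284-9076919 on the plus strand (ENSMUSG00000069833.12). Ahnak was at 539, 423 and 370 CPM in YC, at 1770, 2018 and 2103 CPM in BIC, and at 413 (lowest), 636 (median) and 824 CPM (highest) in pBIC. The 3 BIC libraries stood well above the other 9, and 5 of 6 pBIC libraries were above every YC library. Ahnak rose by 2.14 ± 0.26 on the log2 scale in BIC (edgeR adjusted p = 0.00147). It was lower in pBIC than in BIC, with a log2 difference of -1.62 ± 0.21 (adjusted p = 0.000867). The pBIC difference from YC was 0.52 ± 0.22 (adjusted p = 0.105), and it passed without pBIC 1 (0.62, adjusted p = 0.0313). In the pBIC libraries with Xist transcripts Ahnak was at 824, 782 and 624.6 CPM, below every BIC library.

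Of 8 relatives and partners of Ahnak, 2 rose in BIC against YC (median 1.99), 3 rose in pBIC against YC (median 0.66), and 3 were lower in pBIC than in BIC (median -0.86). These counts stood beside 8.88%, 22% and 19.7% of all genes tested. Ahnak2, its closest relative, averaged 1.60 CPM in YC, 156 in BIC and 10.9 in pBIC, and rose by 6.61 ± 1.13 in BIC (edgeR adjusted p = 0.00558). The Ahnak2 call in pBIC against YC (adjusted p = 0.04455) was lost in 14 of 21 alternatives (adjusted p up to 0.2995). Also called there were Dysf, with 8 of 21 alternatives losing the call, and S100a4, which averaged 0.798 CPM in pBIC. S100a11, a calcium-binding S100 protein, rose by 2.33 ± 0.30 in BIC (adjusted p = 0.00209). S100a10, the direct partner of Ahnak, averaged 41.8 CPM in YC, 107 in BIC and 75.8 in pBIC, and its BIC difference of 1.36 ± 0.68 did not pass (adjusted p = 0.231).

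**Figure D4:**
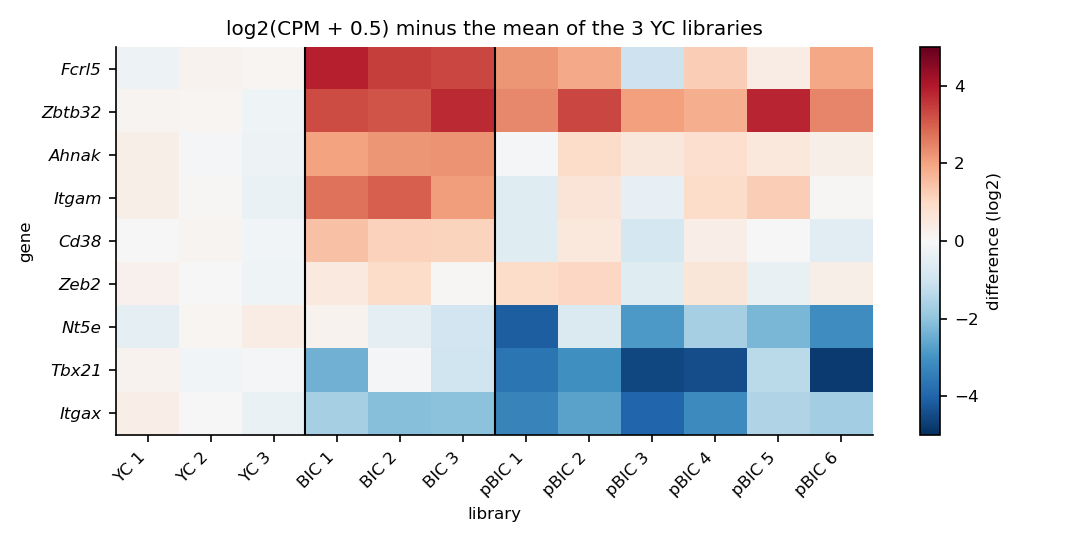
Log2(CPM + 0.5) of the 9 genes in each of the 12 libraries minus the mean of the 3 YC libraries, with colour giving the difference on a log2 scale. Tbx21, Itgax and Nt5e are below 0 across pBIC, Zbtb32 is above 0 in all model libraries, and Ahnak, Itgam and Cd38 are highest in BIC.

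The order of the 9 genes by level per length also differed between the groups. CPM per kilobase of unshared exon (RPKM) were highest for Cd38 in YC (38.1 ± 3.47, SD, n = 3), followed by Ahnak (24.0 ± 4.66) and Fcrl5 (16.2 ± 2.32). In BIC Fcrl5 ranked first (194 ± 41.6 RPKM), followed by Zbtb32 (132 ± 28.6), Ahnak (106 ± 9.34) and Cd38 (90.5 ± 11.6). In pBIC the order was Zbtb32 (88.1 ± 51.3 RPKM, n = 6), Fcrl5 (43.9 ± 26.2), Cd38 (35.4 ± 13.6) and Ahnak (34.4 ± 8.20), and these 4 overlapped within their SDs. Itgax was the lowest of the 9 in both models (1.27 ± 0.26 RPKM in BIC and 0.840 ± 0.62 in pBIC). Tbx21 had 11.9 ± 1.46 RPKM in YC, rank 5 of the 9, and 1.23 ± 1.65 RPKM in pBIC, rank 8.

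The profiles over the 12 libraries were compared by the root mean square difference of log2(CPM + 0.5) after centring each gene on its mean, where a smaller value means a closer profile. The closest pair among the 9 genes was Cd38 and Ahnak (0.456), followed by Itgam and Ahnak (0.50) and by Itgam and Cd38 (0.595). The farthest pair was Tbx21 and Zbtb32 (2.65). Tbx21 and Itgax, both T-bet-type markers, were 1.18 apart, and the neighbouring integrin genes Itgax and Itgam 1.74. The search for the nearest genes did not cover all genes tested. It left out pseudogenes, antigen receptor segments, identifiers without a matched name and genes with only a provisional symbol. Among the tested genes that remained, the nearest to Ahnak was Itgb7 (0.322), and to Itgam F5 (0.397) and Lgals3 (0.404). The nearest to Zbtb32 were Gbp7 (0.420) and Plac8 (0.494), and to Itgax Dok2 (0.429) and Sidt1 (0.439). The nearest to Nt5e was Laptm5 (0.486), to Fcrl5 Aldh1l2 (0.540), to Cd38 Cd300e (0.231) and to Zeb2 Mib2 (0.294). Within this search, Tbx21 had the most distant nearest gene of the 9, Lonrf1 (0.749).

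Genes that act upstream or downstream of T-bet were counted next. Of 23 such genes 1 rose (Ccl5) and 1 fell (Ifngr1) in BIC against YC, with a median of 0.16. In pBIC against YC 3 rose and 5 fell (median -0.15), and in pBIC against BIC 0 were higher and 1, Tlr9, was lower (median -0.35). The first count was near the share of all genes tested (8.88%), the second stood beside 22%, and the last was below 19.7%. Ifngr1, the ligand-binding chain of the interferon-gamma receptor, averaged 80.8 CPM in YC and fell in both models, with log2 differences of -0.90 in BIC and -1.26 in pBIC (edgeR adjusted p = 0.0363 and 0.00147). Its BIC call was lost in 11 of 21 alternatives (adjusted p up to 0.481), among them those without any 1 YC or BIC library or without pBIC 2. Stat4, which transmits interleukin-12 signals, fell by 3.63 in pBIC (adjusted p = 0.00556). Tlr9, a sensor of DNA in endosomes, fell by 1.12 in pBIC against YC (adjusted p = 0.0167). Ccl5, a chemokine gene that T-bet activates in T cells, rose by 3.95 ± 0.75 in BIC and by 2.77 ± 0.67 in pBIC (adjusted p = 0.00904 and 0.0122).

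Cxcr3, a chemokine receptor gene that T-bet activates directly, was at 12.3, 14.7 and 12.1 CPM in YC and at 3.20, 5.17 and 3.62 CPM in BIC. Of the pBIC libraries, pBIC 5 had 95.1 CPM and the other 5 had 0.206 to 3.16 CPM. The highest pBIC library for Cxcr3 was thus the highest for Tbx21 as well. In pBIC 5 the 12 T cell markers summed to 60.1 CPM, the highest of pBIC. In BIC they summed to 57.2 to 142 CPM, where Cd3g alone averaged 61.4 CPM. Its 9 B cell markers summed to 2757 CPM, the lowest of the 12 libraries. The part of these markers in the Cxcr3 and Tbx21 values was not tested. Cxcr3 did not pass in the full fit (0.40 ± 1.49 for pBIC against YC, edgeR adjusted p = 0.873), and without pBIC 5 it was lower in pBIC (-3.06, adjusted p = 0.0107).

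Zbtb32 and Zeb2 act with other factors, whose counts were as follows. Of 8 partners and targets of Zbtb32 1 rose and 1 fell in BIC against YC (median -0.05), 5 fell in pBIC against YC (median -1.02) and 4 were lower in pBIC than in BIC (median -1.05). The shares of all genes tested were 8.88%, 22% and 19.7%. Ciita, the class II transactivator gene that Zbtb32 can repress, averaged 724 CPM in YC, 413 in BIC and 143 in pBIC, and fell by 2.34 on the log2 scale in pBIC (edgeR adjusted p = 0.00248). Bcl6, the germinal centre repressor, fell in BIC and pBIC, with log2 differences of -4.95 and -5.88 (adjusted p = 0.0121 and 0.000566). Of 11 partners of Zeb2, 1 fell in BIC (median -0.18), 2 fell in pBIC against YC (median 0.15) and 0 passed between the models (median -0.09). Those were Mef2c, a B cell transcription factor, lower by -2.02 ± 0.31 in BIC and -1.63 ± 0.25 in pBIC (adjusted p = 0.00393 and 0.00128), and Id3, an inhibitor of E proteins, lower by -1.37 ± 0.36 in pBIC (adjusted p = 0.0178). The Zeb2 counts were near or below the shares of all genes tested (8.88%, 22% and 19.7%).

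Finally, 26 other genes linked to memory B cells were counted. In BIC against YC 8 rose and 1 fell (median 0.33), in pBIC against YC 5 rose and 5 fell (median -0.29), and in pBIC against BIC 0 were higher and 8 lower (median -0.72). Of all genes tested, 8.88%, 22% and 19.7% passed in these comparisons. Cd80, a costimulatory ligand and memory marker, averaged 9.93 CPM in YC, 63.0 in BIC and 22.8 in pBIC. It rose by 2.66 ± 0.30 in BIC and by 1.20 ± 0.26 in pBIC (edgeR adjusted p = 0.0012 and 0.00745), and was lower in pBIC than in BIC (-1.47 ± 0.24, adjusted p = 0.00242). Pdcd1lg2, which encodes PD-L2, rose by 2.64 ± 0.68 in BIC (adjusted p = 0.0343), a call lost in 8 of 21 alternatives (adjusted p up to 0.501), among them those without any 1 YC or BIC library. It differed by 0.81 ± 0.58 in pBIC (adjusted p = 0.336). Nt5e, the other mouse memory marker of this kind, did not pass in BIC.

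S100a6, a calcium-binding protein gene, rose by 4.80 ± 0.64 in BIC and by 3.33 ± 0.57 in pBIC (edgeR adjusted p = 0.0023 and 0.0021). Bhlhe41, a repressor active in B-1a and memory B cells, rose by 2.25 ± 0.34 and 1.80 ± 0.31 (adjusted p = 0.00372 and 0.00217). Ccr6, a chemokine receptor gene of memory precursors and naive B cells, averaged 107 CPM in YC, 2.82 in BIC and 1.07 in pBIC, and fell in BIC and pBIC, with log2 differences of -5.25 and -6.65 (adjusted p = 0.0136 and 0.000525).

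**Figure D5:**
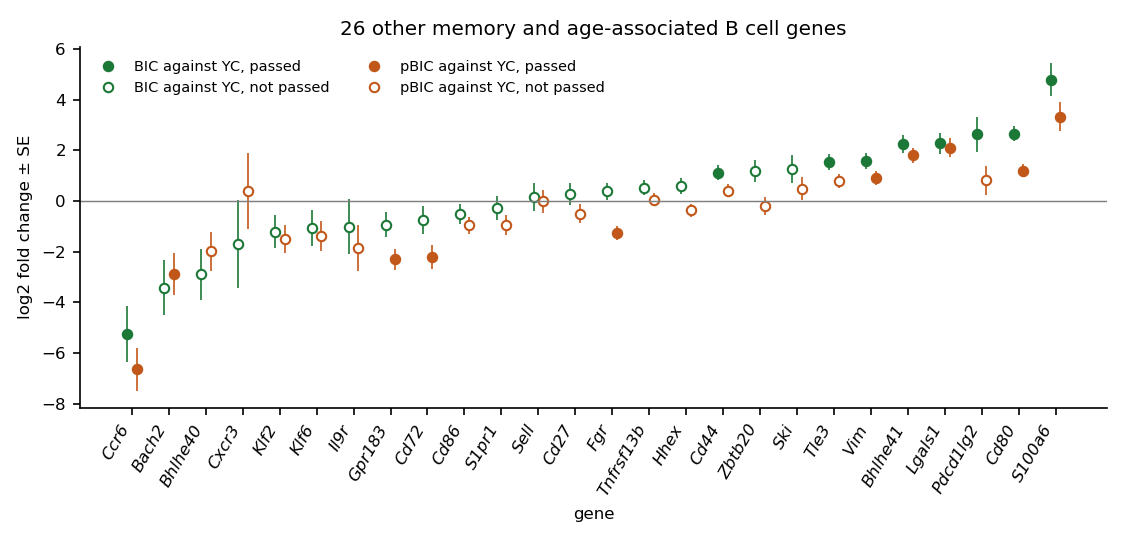
Log2 fold changes with their SE of 26 other memory B cell genes in BIC and in pBIC against YC, ordered by the BIC value, with filled points for genes at an edgeR adjusted p under 0.05. S100a6 is highest and Ccr6 lowest in both models, and 8 genes rose and 1 fell in BIC, against 5 and 5 in pBIC.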

How the data were processed

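Sequencing of poly(A) RNA from the sorted cells of 12 mice gave 100-base read pairs. The deposited values are raw read counts per gene, summed by the authors over the exons of each GENCODE M13 gene with featureCounts 1.5.0, per the file headers. The headers name no overlap, strand, paired-end or multi-mapping option, so reads shared between genes were not counted, antisense transcription cannot be separated from a gene's own, and each mate counted as 1 read. The submitters' processing notes list STAR, FastQC, limma and edgeR besides featureCounts, and mm10 and GRCm38 as builds. The version of STAR was not given in the sources consulted. The header of the YC 1 file names an input folder by another pattern than the rest.

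Gene names came from GENCODE M21, which matched 50376 of 50686 identifiers, and unmatched ones held at most 0.192% of a library's counts. No 2 libraries were identical (0 pairs). The test was that of edgeR 4.0.16 in R 4.3.3: TMM factors, the default filter by group (minimum count 10), a robust quasi-likelihood fit with 1 coefficient per group over all 12 libraries, the quasi-likelihood F test, and Benjamini-Hochberg adjustment over 17754 genes. Calls were made at an adjusted p under 0.05. SE were derived from the fold change and the square root of F, so they restate the test. CPM are TMM-scaled, and RPKM divide them by the exon bases that no other gene shares. Limits from 3 counts cover counting error only, as PCR duplicates were not separated. Motifs were searched in RefSeq windows of GRCm38.p6.

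The 9 genes, 8 pathway lists and 10 marker lists were chosen with earlier results of these data known. Named genes were the 9 members, up to 4 called genes per pathway list in order of p with a mean of at least 1 CPM, 6 direct partners (Itgb2, Cd80, Pdcd1lg2, Cxcr3, Entpd1 and S100a10) and, for likeness of profile, the 2 nearest genes to each member, of which some are printed. Alternatives were DESeq2 1.42.0, RLE factors, 2 other filters, limma-voom (limma 3.58.1), only the compared groups, a term for Xist, a replicate block, leaving out each library, and 1 added later that keeps libraries with few neutrophil markers. No sample was left out.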

Additional observations from a re-analysis of the deposited data

Results flagged for a closer look

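In 6 of 44 named genes checked, 1 pBIC library stood apart from the other 5: its gap to the nearest library, divided by the range of the group, was above Dixon's 95% critical value for 6 samples (0.625). For normally distributed values chance gives about 1 such gene in 20. The check used CPM and not log values, and in all 6 genes the library apart was the highest. The number flagged is thus not compared with that rate. Tbx21 was at 11.2 CPM in pBIC 5, beside 3.05 CPM in the next library (gap over range 0.769). In the same library Cxcr3 was at 95.1 CPM, beside 3.16 CPM in the next (0.969). Ccr6 was at 2.98 CPM in pBIC 4, beside 1.02 CPM in the next, and Naprt, an enzyme of NAD synthesis, was at 2.29 CPM in pBIC 4, beside 1.20 CPM. Fcer2a was at 41.6 CPM in pBIC 3, beside 13.5 CPM. Dysf, which encodes dysferlin, was at 13.9 CPM in pBIC 6, beside 2.01 CPM. The groups of 3 libraries were too small for this check.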

How the results depend on the processing

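Over 21 alternatives, 509 of 567 values for the 9 genes kept their direction and their side of the threshold, 29 lost a call, 21 gained one and 8 changed sign. For the other named genes these numbers were 1950 of 2205, 179, 39 and 37. The number of genes called between BIC and YC was 3032 with DESeq2 and 4602 with only those groups in the fit, beside 1576. Leaving out 1 library gave 563 (without YC 2) to 1867 genes for BIC against YC, 1904 (without YC 2) to 4376 for pBIC against YC and 1422 (without BIC 1) to 4134 for pBIC against BIC. Of the 9 genes it left 3 to 6, 3 to 5 and 3 to 5 called. The alternative with only libraries of few neutrophil markers was chosen after seeing the data. It uses fewer samples, and called 0, 1295 and 29 genes in the 3 comparisons, of which 0, 1 and 0 were among the 9.

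Replicate numbers did not pair the libraries. Deviations of same-numbered libraries from their group means correlated at -0.131 to 0.197, and 0, 1 and 2 of 3 libraries correlated best with their own number in the 3 comparisons, in the order above. With the replicate block 1725, 3144 and 2424 genes were called, and 6, 3 and 5 of the 9. The block ended the calls of Nt5e between pBIC and YC (adjusted p = 0.0818) and Fcrl5 between pBIC and BIC (0.0623). With it Itgax passed between BIC and YC (0.024), and Itgax (-1.57, 0.0431) and Tbx21 (0.0235) passed between pBIC and BIC.

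Changes of sign among the 9 genes were in differences that had not passed, and the cause was not tested. Zeb2 between pBIC and BIC was 0.40 with few neutrophil markers, 0.015 with the replicate block, and -0.30 to 0.14 over the fits without 1 library (positive without BIC 2, pBIC 3 or pBIC 5). Cd38 between pBIC and YC was -0.27 to 0.012 over those fits (positive without pBIC 3). Itgam between pBIC and YC was -0.13 with the replicate block and -0.42 with a term for Xist.

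Among the other named genes, the signs that changed between BIC and YC were those of Itgb2 (0.023 with few neutrophil markers, 0.080 with the Xist term, -0.090 to 0.064 without 1 library) and Zbtb7a (0.14 with the Xist term, -0.040 to 0.070 without 1 library). Between pBIC and YC they were those of Cxcr3 (-2.52 with limma-voom, -3.02 with the replicate block, -3.47 with the Xist term, -3.06 to 0.67 without 1 library), Fcamr (-0.055 with limma-voom, -0.061 to 0.47 without 1 library) and Itgb7 (-0.18 with the Xist term). Between pBIC and BIC, values with limma-voom were -0.0035 for Ada, -0.78 for Cxcr3, -0.73 for Dysf and -0.0043 for Fcer2a. With the Xist term they were -0.41 for Ada, -2.61 for Dysf and -0.69 for Fcer2a, and with the replicate block -1.26 for Cxcr3 and -0.44 for Dysf. With few neutrophil markers they were -0.014 for Dysf, -0.95 for Fcer2a and 0.32 for Id3. Without 1 library they ran from -0.21 to 0.38 for Ada, -2.02 to 0.88 for Ccr6, -1.36 to 2.36 for Cxcr3, -1.05 to 1.15 for Dysf, -0.60 to 1.62 for Fcer2a and -0.36 to 0.18 for Id3.

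Depth limits genes near 0.0637 to 0.0906 CPM, the limit from 3 counts, and all 9 genes were above it in every library. With 3 mice in YC and in BIC, leaving out 1 library ended calls of Cd38, Itgam, Nt5e, Fcrl5 and Tbx21. Between BIC and YC it also ended those of Ifngr1, Pdcd1lg2, Entpd1, Fcamr, Ada, Fcgr4 (without YC 1, YC 2, YC 3 or BIC 2), Fcer2a and Bcl6 (without BIC 1 or BIC 2), Ccr6 (BIC 2), Itgb1 (YC 1) and Itgb7 (YC 3). Between pBIC and YC it ended those of Fcgr4 and Itgb1 (without any 1 YC library), Ccl5 and Tlr9 (YC 1 or YC 2) and Id3 (YC 1 or YC 3). These lists are not complete. Over all 21 alternatives, 14 lost the call of Ahnak2 between pBIC and YC and 10 that of Zbtb7b, of the Zbtb32 list, between BIC and YC. Between pBIC and BIC, 12 lost that of S100a6 and 10 that of Pdcd1lg2.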

Other observations

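No single pBIC library was extreme for all 9 genes. pBIC 5 was the highest pBIC library for Tbx21 (11.2 CPM), Zbtb32 (412 CPM), Itgax (8.33 CPM) and Itgam (8.33 CPM). pBIC 2 was the highest for Zeb2 (184 CPM), Nt5e (41.3 CPM), Cd38 (213 CPM) and Ahnak (824 CPM), and pBIC 1 for Fcrl5 (261 CPM). pBIC 3 was the lowest for Zeb2 (58.8 CPM), Itgax (1.10 CPM), Fcrl5 (26.7 CPM) and Cd38 (80.4 CPM). pBIC 1, the highest library for Fcrl5, was the lowest for Itgam (2.01 CPM), Nt5e (3.42 CPM) and Ahnak (413 CPM).

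Of the marker lists for other cells not given beside a result, the 7 plasma cell markers summed to 1732 to 2051 CPM in YC, 544 to 1394 in BIC and 443 to 1363 in pBIC. Between pBIC and YC 3 of the 7 fell (Sdc1, Xbp1 and Jchain), and 0 passed between BIC and YC. The 8 erythroid markers summed to 19.7 to 467 CPM in YC, 95.8 to 305 in BIC and 21.6 to 411 in pBIC, and the 7 stromal and endothelial markers to 162 to 178, 106 to 254 and 108 to 201 CPM. Of these, 0 passed in any of the 3 comparisons.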
